A study of Drosophila mettleri with 18 samples.

Results

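The 100 most abundant transcripts of Drosophila mettleri larvae are described here, out of 15947 assembled features, or 0.627% of the table. They were chosen from the measured counts themselves. Each library's counts were divided by its scaling factor, the median ratio of its counts to the geometric mean of each feature across libraries, and the level was taken as log2(scaled count + 8). The 100 features with the highest mean level over all 18 libraries are the members. The ranking gave every library the same weight and used no difference between foods, but it used the same counts as every comparison that follows. Counts were not divided by transcript length, so the ranking is of counts and mixes abundance with length.

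Larvae were reared on saguaro cactus, on coastal prickly pear cactus or on lab food, an instant Drosophila medium. They came from the Santa Catalina Island population (strain C-M as replicate 1, C-7 as replicate 2 and C-9 as replicate 3) and from the Sonoran population (strain T-22 as replicate 1, T-27 as replicate 2 and T-28 as replicate 3). Every strain was reared on all 3 foods, with 1 library from a pool of 10 whole larvae aged 8 days for each strain and food, which gave 6 groups of 3 libraries and 6 libraries for each food. The series asks how transcript levels differ with the cactus host. The replicates are separate fly strains with a single pool on each food, so p-values measure the spread between strains, pools and libraries together.

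Drosophila mettleri is a fly of the American deserts whose larvae feed in soil soaked with the juice of rotting cacti, a substrate rich in plant compounds that are toxic to many other flies. In fly larvae in general, the most counted transcripts come from a small number of genes for protein synthesis, digestion, the cuticle, energy metabolism and storage proteins secreted into the blood. The files do not pair features with gene names, so the members are called by their assembly names, no function is given to any of them, and no sequence is shown. A name gives an assembly component and the number of a feature within it. In pools of whole larvae, fewer cells of a type and less RNA per cell cannot be told apart.

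Library totals ranged from 6769906 to 16115982 counts. The lowest count of any member in any library was 322. Mean shares of a library's counts ranged among members from 0.1072% to 9.81%, with a median of 0.1686%, and 8 members averaged above 1%. The first member, comp37474_c2, had a mean level of 20.07 on the log2 scale. The next were comp34071_c2 at 18.58 and comp37474_c3 at 17.65. At the limit of the list the levels ran on without a gap. The last members inside it, comp29488_c0 and comp40029_c0, stood at 13.7199 and 13.7198, and the first features outside it, comp40021_c0 and comp27570_c0, at 13.7150 and 13.6685.

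The members held less of the counts on prickly pear than on the other foods. Their summed share was 50.83% ± 3.18 on saguaro, 42.27% ± 4.57 on prickly pear and 48.25% ± 2.01 on lab food (SD, n = 6 each). On saguaro the shares ran from 46.87% to 56.21% with a median of 50.80%. On prickly pear they ran from 35.00% to 46.96% with a median of 42.99%. On lab food they ran from 46.10% to 50.78% with a median of 48.28%. The prickly pear libraries therefore reached lower than any other but overlapped with both other foods at their upper end. No test was made of this sum, since the members were chosen from the same counts.

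**Figure D1:**
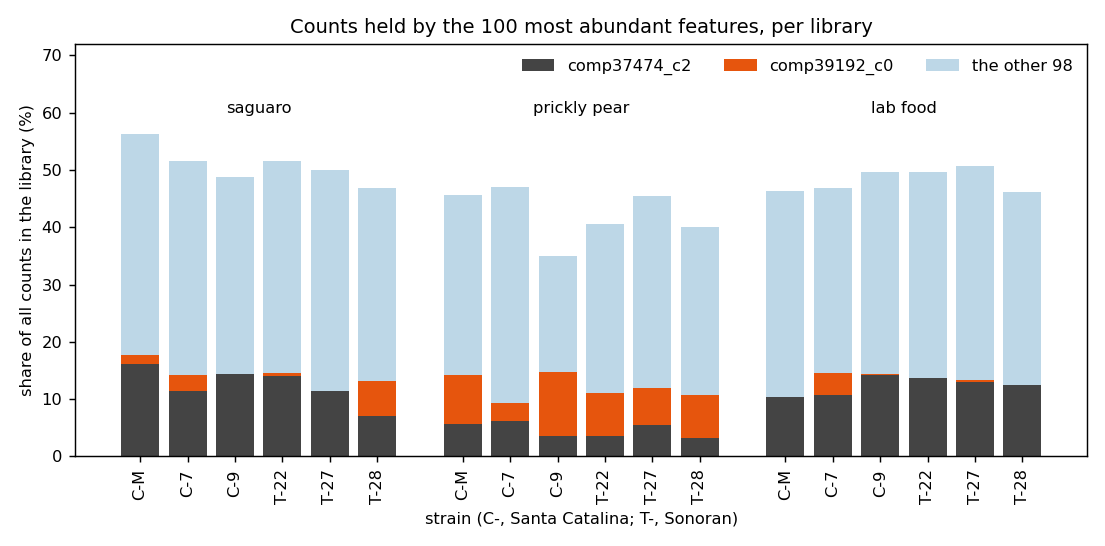
Share of each library's counts, in percent (vertical axis from 0), held by the 100 members, with 1 bar for each library, grouped by food and named by strain. The dark part is comp37474_c2, the orange part comp39192_c0 and the light part the other 98 members. The prickly pear libraries lie between 35.00% and 46.96%, against 46.87% to 56.21% on saguaro and 46.10% to 50.78% on lab food.

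The shares of a pair of members differed between the foods in opposite directions, which partly offset each other in the sum. The most abundant feature, comp37474_c2, took 12.41% ± 3.23 of the counts on saguaro, 4.60% ± 1.29 on prickly pear and 12.41% ± 1.58 on lab food (SD, n = 6 each). Without it, the other 99 members together held 38.42% ± 2.25 on saguaro, 37.67% ± 3.49 on prickly pear and 35.84% ± 1.32 on lab food. In contrast, comp39192_c0 took 1.86% ± 2.39 on saguaro, 7.39% ± 2.61 on prickly pear and 0.726% ± 1.499 on lab food. Without both, the remaining 98 members held 36.56% ± 2.07 on saguaro, 30.28% ± 5.79 on prickly pear and 35.12% ± 1.81 on lab food. Their mean share was lowest on prickly pear, but leaving out comp39192_c0 takes most from that food. Both removals were chosen after the values were seen. The 98 ran from 33.69% to 38.57% on saguaro, 20.26% to 37.61% on prickly pear and 32.40% to 37.46% on lab food, which overlap.

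The most counted feature of a library was always one of these. It was comp37474_c2 in 13 of the 18 libraries, which were all those on saguaro, all those on lab food and the C-7 strain on prickly pear. In the other 5 prickly pear libraries it was comp39192_c0. By bands of rank the pattern was uneven. The first 10 members held 27.40% ± 4.15 of the counts on saguaro, 16.16% ± 3.33 on prickly pear and 24.14% ± 2.08 on lab food. Members 11 to 50 held 17.09% ± 2.20 on saguaro, 19.77% ± 1.05 on prickly pear and 16.25% ± 1.13 on lab food. Members 51 to 100 held 6.34% ± 0.676 on saguaro, 6.35% ± 0.410 on prickly pear and 7.86% ± 0.510 on lab food (SD, n = 6 each). The share was thus lowest on prickly pear only in the first 10, which include comp37474_c2. Members 11 to 50 include comp39192_c0, with 1.86% on saguaro, 7.39% on prickly pear and 0.726% on lab food. Without it, a choice made after the values were seen, their mean share too was lowest on prickly pear.

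In CPM, the library's counts scaled to a common total with edgeR's TMM factors, comp37474_c2 had a lowest, median and highest value of 64414, 142620 and 239081 on saguaro. On prickly pear these were 22054, 35148 and 52125. On lab food they were 100334, 163832 and 182494. Every prickly pear library lay below every library of the other foods, while saguaro and lab food overlapped. The log2 fold change of prickly pear against lab food was -2.04 (SE 0.38, adjusted p = 0.00241 with edgeR's quasi-likelihood test over all features). That of saguaro against prickly pear was 2.04 (SE 0.38, edgeR adjusted p = 0.00806), and that of saguaro against lab food was 0.00 (edgeR adjusted p = 1.00). These comparisons share libraries, and the values are given side by side only.

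The level of comp39192_c0 was the most variable among the members. Its highest library stood 2482 times above its lowest, where the median member had a ratio of 5.49. On prickly pear all 6 libraries were high, with a lowest, median and highest of 27431, 54131 and 68456 CPM. On lab food the values were 105, 1362 and 35286 CPM, with only strain C-7 above the lowest prickly pear library. That lowest library, at 27431 CPM, was also of C-7, so within this strain the level was higher on lab food. The C-7 shares of the counts were 3.779% on lab food and 3.222% on prickly pear. In each of the other strains the level was higher on prickly pear. On saguaro the strains fell far apart. As shares of the counts, saguaro libraries of the Santa Catalina strains had, for C-M, C-7 and C-9, 1.618%, 2.845% and 0.002%, and those of the Sonoran strains had, for T-22, T-27 and T-28, 0.506%, 0.016% and 6.194%. High and low strains thus occurred in both populations on that food.

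For prickly pear against lab food, comp39192_c0 had a log2 fold change of 3.67 (SE 1.45), which did not pass the test (edgeR adjusted p = 0.0565). Without the C-7 lab food library the value was 5.28 (edgeR adjusted p = 0.0273), and with library totals in place of TMM it was 4.25 (edgeR adjusted p = 0.0194). It passed in 8 of 30 other settings, these among them, and did not pass in the other 22, with the value positive in all 30. It was the member with the largest positive value in this comparison. Across the 18 libraries its log2 CPM correlated negatively with 94 of the other 99 members, with a median r of -0.590. With comp37474_c2 the r was -0.666. The member most like it was comp38531_c1, with r = 0.846. That feature averaged 2363 ± 745 CPM on saguaro, 2765 ± 383 CPM on prickly pear and 1963 ± 499 CPM on lab food, and its log2 fold change of 0.51 for prickly pear against lab food (SE 0.22) did not pass the test (edgeR adjusted p = 0.0759). In turn comp37474_c2 correlated positively with 96 of the other 99, with a median r of 0.774 and the highest, 0.948, with comp25600_c0. These correlations describe libraries that share foods, strains and scaling factors.

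**Figure D2:**
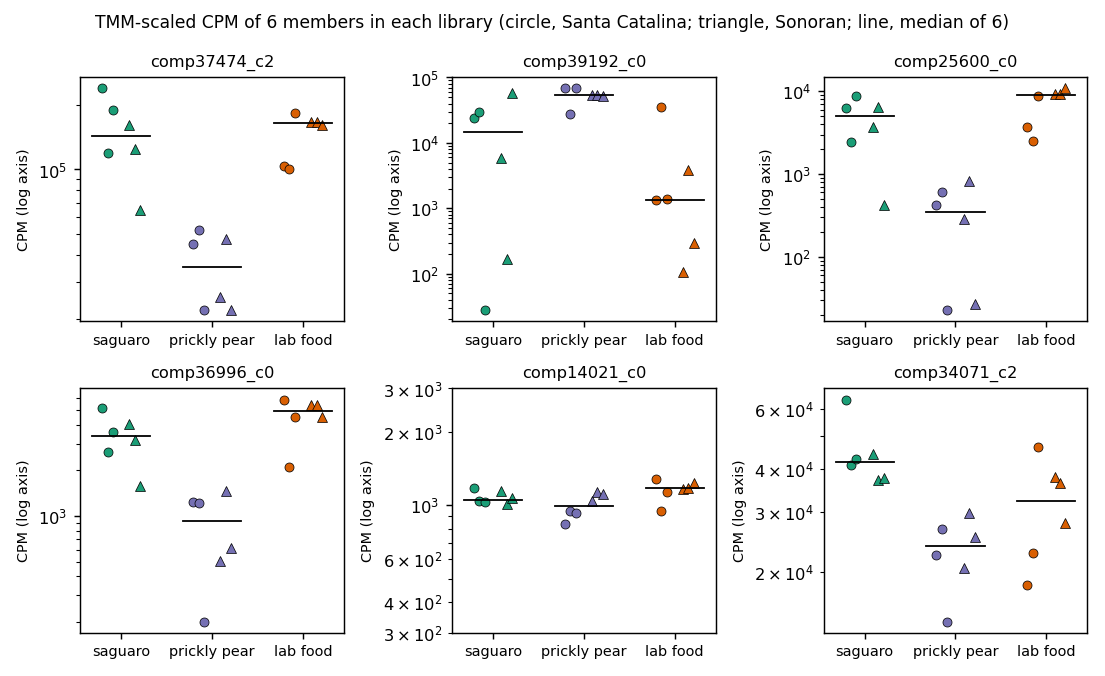
Level of 6 members in each library, in TMM-scaled CPM on log axes whose ranges differ between panels, by food. Each circle is a Santa Catalina and each triangle a Sonoran library, and lines mark the median of 6. comp39192_c0 is at 27431 CPM or more in every prickly pear library but ranges over several orders of magnitude on the other foods, and comp37474_c2 is at 52125 CPM or less on prickly pear and at 64414 CPM or more elsewhere.

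Relative to the TMM scale, most members were lower on prickly pear than on lab food. Of the 100 members, 67 fell and 0 rose at an adjusted p below 0.05 (edgeR's quasi-likelihood test), and 97 had a negative log2 fold change. Over all 12514 features tested, 38.5% were called, 19.5% higher and 18.9% lower. The members' median log2 fold change was -0.62, from -4.26 to 3.67, against 0.08 over all features. DESeq2 called 79 members lower and 2 higher. The libraries of the foods did not overlap for 22 members, all lower on prickly pear, where 7.88% of all features were lower and 4.36% higher without overlap. In 45 members prickly pear was lower in all 6 strains, against 15.5% of all features, and in 0 members was it higher in all 6, against 19.3% of all features.

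The direction of a single member depends on the scaling, and the counts by overlap and by strain above are on the TMM scale. TMM factors moved with food: they were 0.676 to 1.085 on saguaro, 1.168 to 1.636 on prickly pear and 0.768 to 1.071 on lab food, and the part of this in the result was not tested. With library totals alone, the median log2 fold change was 0.01 for members and 0.72 for all features, and 22 members were called lower and 8 higher. The 67 members called lower with TMM then had a negative value in 40 cases and a positive one in 27. Relative to the median of all features, the members' median was -0.71 with either scaling. A change of scaling shifts all features of a comparison nearly alike, so this agreement was fixed in advance and is no check.

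This pattern extended below the list. Prickly pear against lab food gave 0 higher and 4 lower calls among members 1 to 10, 0 higher and 25 lower among members 11 to 50 and 0 higher and 38 lower among members 51 to 100. Among the features at rank 101 to 200, 4 were higher and 76 lower, with a median log2 fold change of -0.58. At rank 201 to 1000, 51.7% were lower, at rank 1001 to 5000, 27.7%, and at rank 5001 to 12514, 9.4%, where 23.2% were higher. The count of lower members was thus close to that of the next 100 features, and nothing in it is particular to the members.

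**Figure D3:**
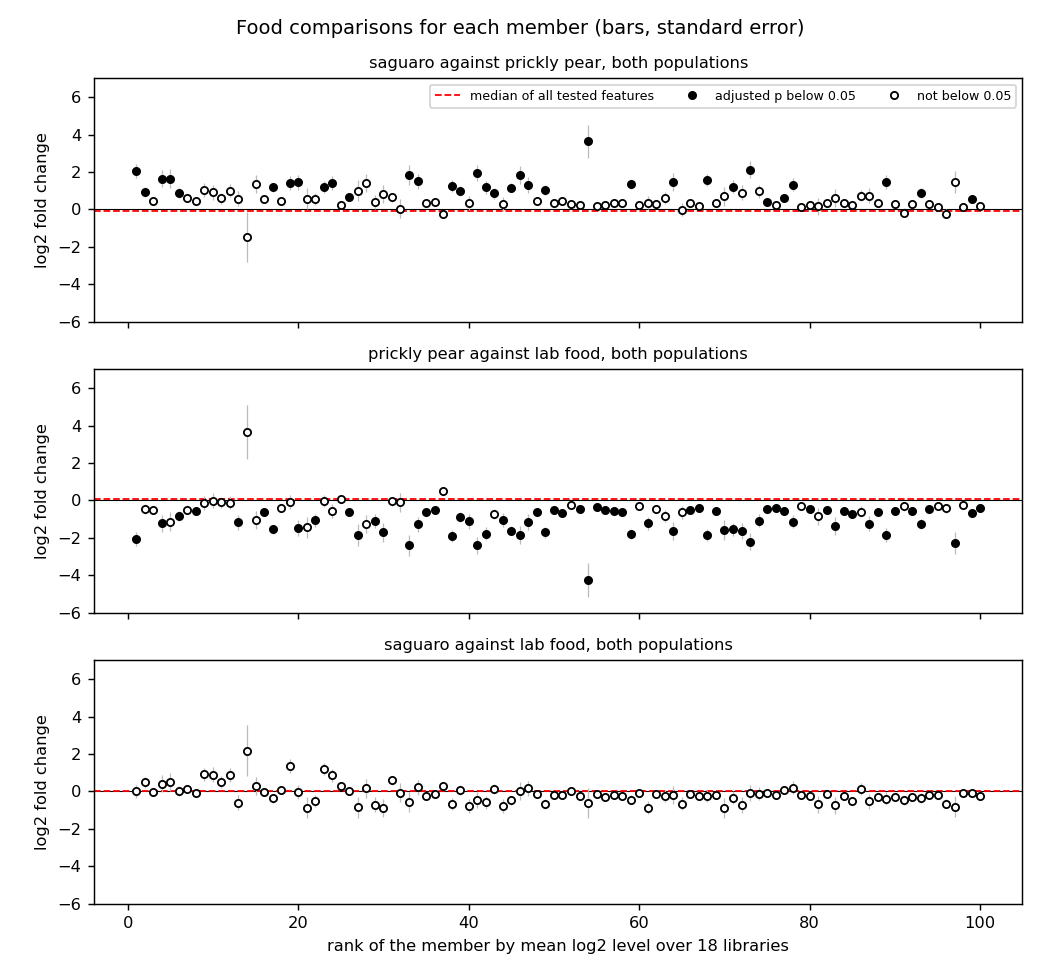
Log2 fold change (TMM scale, both populations) of each member against its abundance rank, in a panel for each food comparison. Bars are standard errors, filled points were called at an adjusted p below 0.05, and the dashed line is the median of all features tested. Filled points number 34 for saguaro against prickly pear, all above 0, 67 for prickly pear against lab food, all below 0, and 0 for saguaro against lab food.

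The called members with the largest fall and no overlap between the foods were comp25600_c0 and comp36996_c0. For comp25600_c0 the lowest, median and highest were 22.7, 353 and 835 CPM on prickly pear, and 2476, 8980 and 10860 CPM on lab food. The log2 fold change was -4.26 (SE 0.90, edgeR adjusted p = 0.00394). On saguaro it ranged from 422 to 8872 CPM and overlapped with both. For comp36996_c0 the lowest, median and highest were 200, 922 and 1454 CPM on prickly pear, and 2113, 4951 and 5873 CPM on lab food. Its log2 fold change was -2.40 (SE 0.44, edgeR adjusted p = 0.00236). On saguaro it averaged 3371 ± 1230 CPM (SD, n = 6). Both kept a negative value and their call in 30 of 30 other settings, library totals included.

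At the other end of the range, the members with the smallest SD of their level were comp14021_c0 and comp14027_c0. On prickly pear against lab food comp14021_c0 had a log2 fold change of -0.22 (edgeR adjusted p = 0.124) and comp14027_c0 one of -0.40 (edgeR adjusted p = 0.0137). As shares of the counts both were higher on prickly pear. The first held 0.0944% on saguaro, 0.134% on prickly pear and 0.0998% on lab food, and the second 0.113%, 0.153% and 0.130% in the same order of foods. With library totals their log2 fold changes were 0.42 and 0.24, so their direction flips with the scaling. The members next to the first by abundance, comp34071_c2 and comp37474_c3, had log2 fold changes of -0.45 (edgeR adjusted p = 0.210) and -0.50 (edgeR adjusted p = 0.0565), which became 0.19 and 0.12 with library totals.

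**Figure D4:**
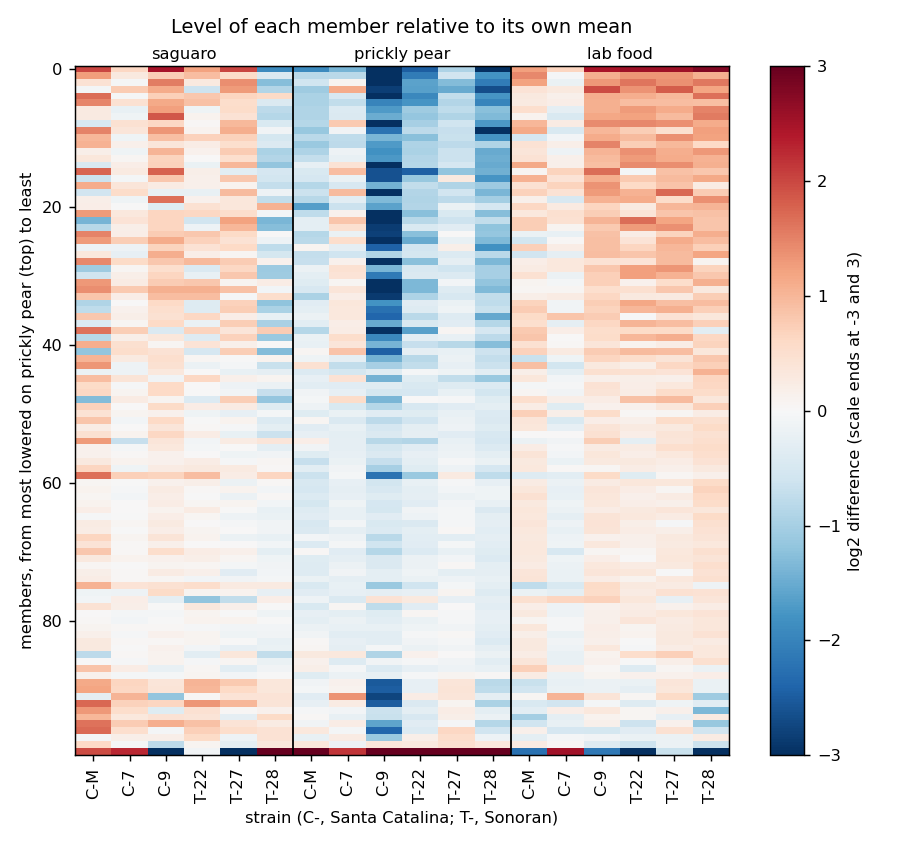
Level of the 100 members in the 18 libraries (columns, by food and strain) as log2 TMM-scaled CPM minus the member's mean over the libraries, in colour. Rows are ordered by the log2 fold change of prickly pear over lab food, from -4.26 at the top to 3.67, for comp39192_c0, at the bottom, and the scale ends at -3 and 3. Blue on prickly pear is deepest in strain C-9 and faint in strain C-7.

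Saguaro against prickly pear compares the cactus hosts with each other. Of the members, 34 rose on saguaro and 0 fell (edgeR, adjusted p below 0.05), against 20.1% of all features called, 13.9% higher and 6.24% lower. The median log2 fold change was 0.59 for members and -0.07 for all features. For 17 members every saguaro library lay above every prickly pear library (5.07% of all features), and for 0 below (1.41%). In all 6 strains 49 members were higher on saguaro (14.7% of all features) and 0 were lower (7.3%). At rank 101 to 200 the count higher was 39, and at rank 201 to 1000 the share higher was 44.1%. With library totals 20 members were called higher and 18 lower, with medians of -0.02 for members and -0.68 for all features. No call remained without strain C-M or without strain T-22.

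Beside comp37474_c2, the called member with the largest rise and no overlap was comp35754_c0. Its lowest, median and highest were 1213, 2003 and 4017 CPM on saguaro, and 89.9, 502 and 900.3 CPM on prickly pear. The log2 fold change was 2.12 (SE 0.45, edgeR adjusted p = 0.00930). On lab food it averaged 2432 ± 912 CPM (SD, n = 6). The most abundant members that differed here included comp34071_c2, with 44564 ± 9949 CPM on saguaro and 23192 ± 5434 CPM on prickly pear (SD, n = 6 each) and a log2 fold change of 0.94 (edgeR adjusted p = 0.0328). Only 5 members had a negative value and none was called. Chosen after their values were seen, these were comp39192_c0, comp38531_c1, comp32943_c0, comp40010_c0 and comp33355_c0.

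Saguaro against lab food changed no member past the threshold: 0 of 100 were called by edgeR, with 0.36% of all features called, 0.16% higher and 0.2% lower. The smallest adjusted p among members was 0.154. At an unadjusted p below 0.05, 7 members were higher and 8 lower, or 15 of 100 against 10.2% of all features, and DESeq2 called 2 higher and 0 lower. The median log2 fold change was -0.18 for members and 0.04 for all features. For 3 members all saguaro libraries lay above all lab food libraries (0.408% of all features), and for 0 members below (0.495%). In all 6 strains 7 members were higher on saguaro (3.27% of all features) and 7 lower (3.46%). Chosen after their values were seen, these 3 were comp25615_c1, comp39996_c0 and comp33195_c1. The feature comp39996_c0 averaged 10892 ± 3957 CPM on saguaro and 4306 ± 598 CPM on lab food (SD, n = 6 each), with a log2 fold change of 1.34 (SE 0.38, edgeR adjusted p = 0.187). For comp33195_c1 the averages were 7275 ± 2639 CPM on saguaro and 3125 ± 1026 CPM on lab food, with a log2 fold change of 1.19 (SE 0.31, edgeR adjusted p = 0.154).

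Within populations, the fall on prickly pear against lab food passed the test mostly in the Sonoran strains. In Santa Catalina 3 members fell and 0 rose, with 0.424% of all features called, 0.00799% higher and 0.416% lower, and a median log2 fold change of -0.57 for members and 0.03 for all features. In Sonoran 40 members fell and 0 rose (edgeR, adjusted p below 0.05), with 28.9% of all features called, 14.6% higher and 14.4% lower, and a median of -0.78 for members and 0.14 for all features. Unadjusted edgeR p-values below 0.05 belonged to 44 members in Santa Catalina, all lower, against 18.6% of all features in either direction. In Sonoran they belonged to 71 lower and 2 higher members, against 44.6% of all features. The libraries of the foods did not overlap for 38 members in Santa Catalina, all lower (14.1% of all features lower, 13.1% higher). In Sonoran they did not for 83 lower members (23.1%) and 2 higher ones (32.6%). The difference between the populations in this response was tested itself, and 0 members and 0.0% of all features were called. No member had an unadjusted p below 0.05 for that difference either (4.44% of all features), and DESeq2 called 0. The count of called members therefore differs between the populations without a member for which the response was shown to differ. With library totals the members' medians were -0.05 in Santa Catalina and -0.04 in Sonoran, and the calls were 0 in Santa Catalina and 5 higher and 17 lower in Sonoran. Relative to the median of all features, the members' median was -0.60 in Santa Catalina and -0.92 in Sonoran. These were the same with either scaling, as a shift common to all features must leave them.

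In Santa Catalina the members that fell were comp27680_c0, comp38048_c1 and comp37916_c5, the last chosen after its values were seen. For comp38048_c1 the libraries had 1782, 1823 and 3563 CPM on prickly pear, and 6785, 8624 and 8680 CPM on lab food, with a log2 fold change of -1.75 (SE 0.35, edgeR adjusted p = 0.0423). For comp27680_c0 they had 427, 645 and 801 CPM on prickly pear, and 1562, 1873 and 3894 CPM on lab food, with a log2 fold change of -1.97 (SE 0.37, edgeR adjusted p = 0.0385). The value for comp37916_c5 was -1.74 (SE 0.35, edgeR adjusted p = 0.0423). In none of the 3 did the foods overlap. These calls were lost in 20 of 31 other settings for comp27680_c0, in 26 for comp38048_c1 and in 24 for comp37916_c5, with strain as a block among them.

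In Sonoran the largest falls without overlap were in comp25600_c0 and comp29259_c1. The libraries of comp25600_c0 had 27.1, 286.7 and 835 CPM on prickly pear, and 9219, 9300 and 10860 CPM on lab food, with a log2 fold change of -4.68 (SE 1.30, edgeR adjusted p = 0.0210). Those of comp29259_c1 had 168, 346 and 378 CPM on prickly pear, and 2457, 2719 and 3802 CPM on lab food, with a log2 fold change of -3.33 (SE 0.87, edgeR adjusted p = 0.0174). In Santa Catalina comp29259_c1 had 151, 510.5 and 2311 CPM on prickly pear, and 1305, 1431 and 4148 CPM on lab food, which overlap. With strain as a replicate block 29 members fell in Sonoran, and without T-22 or T-28 the number was 0.

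Strains differed in how far the members' levels shifted together on the TMM scale. On prickly pear against lab food, 86 members were lower in C-M, 52 in C-7 and 98 in C-9, with median log2 differences of -0.64, -0.01 and -1.72. In the Sonoran strains 93 were lower in T-22, 90 in T-27 and 95 in T-28, with medians of -0.63, -0.63 and -0.94. The all-feature medians stayed between -0.01 and 0.13. On this scale C-7 was thus the strain with the smallest median shift and C-9 the one with the largest, both from Santa Catalina. With library totals the numbers lower were 71, 36 and 55 in C-M, C-7 and C-9, with medians of -0.30, 0.13 and -0.65, against all-feature medians of 0.28, 0.10 and 0.95. In the Sonoran strains, in the same order as above, they were 46, 53 and 53, with medians of 0.12, -0.06 and -0.03, against all-feature medians of 0.70, 0.56 and 0.82. The members' median was thus below that of all features with library totals in every strain but C-7. On saguaro against prickly pear, 84, 76 and 97 members were higher on the TMM scale in C-M, C-7 and C-9, and 90, 79 and 84 in the Sonoran strains in the same order. From 43.6% to 55.8% of all features were higher in a strain on that scale. With library totals 58, 64 and 38 members were lower in the Santa Catalina strains and 55, 51 and 55 in the Sonoran ones. Most members were then lower on saguaro in every strain but C-9. Their medians were -0.14, -0.07 and 0.34 in Santa Catalina and -0.10, -0.02 and -0.12 in Sonoran. Those of all features were -0.80, -0.20 and -0.97 in Santa Catalina and -0.61, -0.28 and -0.32 in Sonoran. The members' median was thus above that of all features in every strain.

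**Figure D5:**
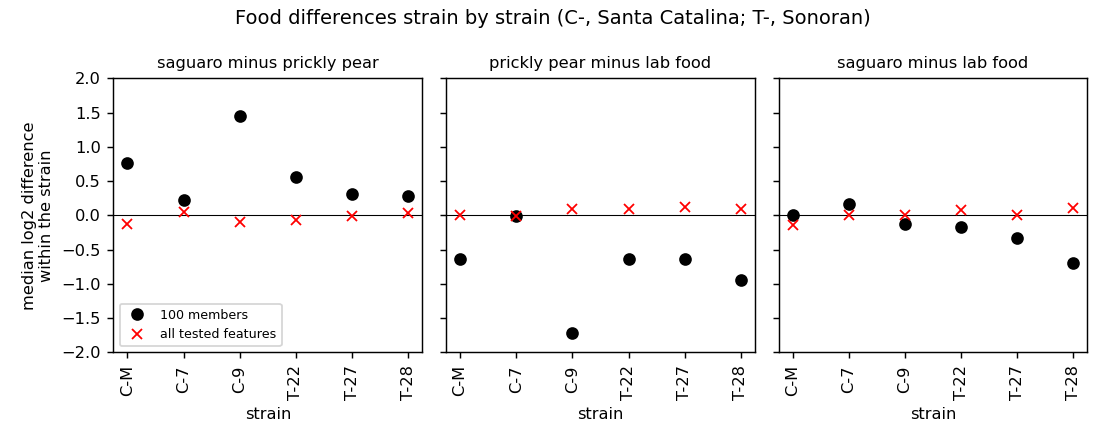
Median log2 difference (TMM scale) of the 100 members between foods in each strain, with 1 black point for each strain in a panel for each comparison and a cross for the median of all features tested. For prickly pear minus lab food the points run from -1.72 in C-9 to -0.01 in C-7, and for saguaro minus lab food from -0.69 in T-28 to 0.17 in C-7.

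Saguaro against lab food gave 0 called members within either population. In Santa Catalina 3 members were higher and 0 lower at an unadjusted edgeR p below 0.05, against 7.69% of all features in either direction. There DESeq2 called 0 members, and edgeR called 0.0559% of all features at an adjusted p below 0.05. In Sonoran 2 members were higher and 19 lower at an unadjusted edgeR p below 0.05, near the 18.9% of all features in either direction. There DESeq2 called 3 members, and edgeR called 0.024% of all features at an adjusted p below 0.05. The median log2 fold change of members was 0.02 in Santa Catalina and -0.39 in Sonoran on the TMM scale, and -0.25 in Santa Catalina and -0.11 in Sonoran with library totals, which turns the order of the populations round. Relative to the median of all features it was 0.05 in Santa Catalina and -0.47 in Sonoran with TMM, and 0.03 and -0.47 with library totals. A change of scaling can hardly move these relative values, so their agreement is no check. Without overlap between the foods, 8 members were higher (4.47% of all features) and 2 lower (4.32%) in Santa Catalina, and 4 higher (18.7%) and 45 lower (12.1%) in Sonoran. For the difference between these responses 0 members were called (0.0% of all features, smallest adjusted p 0.201). At an unadjusted edgeR p below 0.05, 7 members had the higher value in Santa Catalina and 0 the lower. That was below the 18.4% of all features in either direction, and DESeq2 called 0 members. On the TMM scale the difference was positive in 90 of 100 members, with a median of 0.40 against -0.06 for all features. With library totals it was negative in 56, with a median of -0.08 against -0.59 for all features.

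Over the 3 foods the populations did not differ in any member at an adjusted p below 0.05. With counts summed for each strain, 3 strains against 3, edgeR called 0 members and 0.0914% of all features, 0.0533% higher and 0.0381% lower. The log2 fold changes of Santa Catalina over Sonoran ran from -0.51 to 0.94 in members, with a median of -0.03. The member at the upper end, comp34431_c0, averaged 2268 ± 306 CPM in Santa Catalina and 1178 ± 218 CPM in Sonoran (SD, n = 3 each). It had the only unadjusted p below 0.05 among members (0.00169, edgeR adjusted p = 0.234), where 11.9% of all features had one, and DESeq2 called 1 member.

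On the TMM scale, food accounted for much more of the members' variance than population did. The TMM factors themselves moved with food, and these shares were not computed with library totals. The median share of a member's variance in log2 CPM was 52.0% between foods, 1.03% between populations and 38.0% within groups. For the features at rank 101 to 200 the medians were 58.0%, 1.13% and 32.3%. The SD within groups had a median of 0.485 on the log2 scale for members and 0.278 at rank 101 to 200, and it was 0.640 in members 11 to 50 and 0.267 in members 51 to 100. A single axis held most of the members' summed variance on the TMM scale. Members were centred but not brought to equal variance, so those that varied most weighed most. The SD within groups was 3.30 in comp39192_c0 and 1.78 in comp25600_c0. The first principal component of their log2 CPM took 71.52% of the variance and the second 12.91%. On the first, the C-9 prickly pear library lay at -18.75 and the T-28 prickly pear library at -11.25. The libraries of C-7 lay at 0.87 on saguaro, -1.03 on prickly pear and -0.61 on lab food.

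The list of the most abundant transcripts itself changed with food. Of the 100 members, 35 were among the 100 most abundant features of every library, 76 in at least 12 libraries and 8 in fewer than 9. By food means, 87 members were in the first 100 on saguaro, 83 on prickly pear and 87 on lab food. The 3 lists shared 65 features. A further 23 features were on the prickly pear list alone, and 23 were on those of saguaro and lab food but not on that of prickly pear. The own 100 most abundant features of each library held 52.17% ± 3.28 of counts on saguaro, 43.73% ± 3.41 on prickly pear and 49.59% ± 2.35 on lab food (SD, n = 6 each).

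Some members were features of the same assembly component and may stand for almost the same sequence, in which case the division of reads between them is uncertain, as is the level of each. Of the members, 57 were alone in their component, against 62.3% of all features, and 16 members fell into 7 shared components. The members comp37474_c2 and comp37474_c3 share one, and their log2 CPM had r = 0.8516 across the 18 libraries. That is not particular to a shared component, as comp37474_c2 had a median r of 0.774 with the other members. With comp25600_c0, of another component, it had 0.948. In comp25615 the r of the pair was 0.9975. Component comp36692 held 4 members in a pair of pairs: r was 0.9908 between _c7 and _c0 and 0.9783 between _c12 and _c10, but only 0.58 to 0.61 across the pairs. For prickly pear against lab food the log2 fold changes of these 4 were -1.17, -1.07, -0.91 and -0.71, with edgeR adjusted p of 0.0330, 0.0213, 0.0175 and 0.0521, so the last did not pass the test.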

How the data were processed

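For each of 18 libraries the authors deposited a whole-number count for every assembled gene. The series' design text says that the assembly was made de novo and that a gene's sequences were merged before counting. The submitters' processing notes name edgeR without a version. Which program counted reads, and any rounding or filter, is not given in the sources used here. By the labels' protocols, every library was divided between both sequencing lanes.

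Members and comparisons were chosen with earlier results of these data known. The tests were made with edgeR 4.0.16 in R 4.3.3: filterByExpr on the 6 groups (12514 features left, all 100 members among them), TMM scaling, a model of 6 group means and the quasi-likelihood F test, with Benjamini-Hochberg adjustment over all features tested and calls at an adjusted p below 0.05. Comparisons of populations over the foods used counts summed per strain (13129 features). The fits were tested on simulated data. CPM values carry the TMM factors, except those of strain sums, which use totals. Variances, principal components and correlations are descriptions.

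The features named are the 3 with the highest mean level, those next to rank 100, the 2 with the highest and the 2 with the lowest SD of their level, and in each comparison the 2 called members that moved farthest each way without overlap. Others are said to be chosen after their values were seen or stand as the partner of a named one. The strain, given in the labels, pairs a population's libraries across foods: deviations from group means correlated between libraries of a strain with a median r of 0.112, from -0.325 to 0.617, over 18 pairs. No library repeated another of its group, with a chi-square of at least 26.6 for each degree of freedom over 18 pairs. Pairs from different groups were not examined. Alternatives were RLE factors, library totals, TMM factors from features that are not members, no filter, DESeq2 1.42.0, members by mean CPM, strain as a replicate block, only the libraries compared, and leaving out each library and each strain.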

Additional observations from a re-analysis of the deposited data

Results flagged for a closer look

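For each food, the TMM-scaled CPM of each named member and the shares of the counts held by the first member and by all 100 were examined over the 6 libraries, 51 sets in all. In 6 of these, 1 library stood apart from the other 5 by Dixon's test at the 95% level, which chance gives in about 1 of 20 sets. The C-7 lab food library, Santa Catalina replicate 2, was the lowest for comp36996_c0 on that food, at 2113 CPM, and the highest for comp39192_c0, at 35286 CPM. The C-7 prickly pear library was the highest for comp29259_c1 on that food, at 2311 CPM. The C-M saguaro library, Santa Catalina replicate 1, was the highest on saguaro for comp35754_c0, at 4017 CPM, and for comp34071_c2, at 64045 CPM. The C-9 prickly pear library was the lowest for comp37474_c3 on that food, at 9314 CPM. All of these libraries are from Santa Catalina. As shares of the counts, comp37474_c3 on prickly pear was 1.523% in C-9, beside 1.532% in T-27. On saguaro, comp34071_c2 was 4.331% and comp35754_c0 0.272% in C-M, beside 4.083% and 0.205% in T-28. On lab food comp36996_c0 was 0.226% in C-7, beside 0.346% in T-28. The C-7 shares stood farther off for comp39192_c0, 3.779% beside 0.306% in T-27, and for comp29259_c1, 0.271% beside 0.064% in C-M. Dixon's test was not run on these shares.

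On saguaro against lab food, in TMM-scaled CPM, comp37474_c2 and comp37474_c3 were higher in each of the 3 Santa Catalina strains and lower in each of the 3 Sonoran strains. The median log2 difference of comp37474_c2 was 0.24 in Santa Catalina and -0.41 in Sonoran. For comp37474_c3 it was 0.24 in Santa Catalina and -0.46 in Sonoran. The difference between the populations in this response did not pass edgeR's test for either, with an adjusted p of 0.497 for comp37474_c2 and 0.405 for comp37474_c3. On the TMM scale that difference was positive in 90 of 100 members, so its sign is not particular to these features. They also share an assembly component and may not be separate cases. As a share of the library's counts, comp37474_c2 in strain T-22 was 14.08% on saguaro and 13.72% on lab food, so that the direction in this strain depends on the scaling. As a share comp37474_c3 was 1.725% on saguaro and 1.989% on lab food in C-M, and 1.539% on saguaro and 1.499% on lab food in T-22, so its direction depends on the scaling in both of these strains.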

How the results depend on the processing

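Counts of called members depended on the scaling, the tool and single strains. With library totals alone, prickly pear against lab food called 30 members (8 higher, 22 lower), and 22 in Sonoran (5 higher, 17 lower). On prickly pear against lab food, library totals reversed the log2 fold changes of comp34071_c2 (0.19), comp37474_c3 (0.12), comp14021_c0 (0.42) and comp14027_c0 (0.24). DESeq2 called 81 for prickly pear against lab food (2 higher, 79 lower), 2 for saguaro against lab food and 60 for saguaro against prickly pear. Within populations it called 72 for prickly pear against lab food in Sonoran, 22 in Santa Catalina and 3 for saguaro against lab food in Sonoran. Between the populations it called 1. For prickly pear against lab food in Santa Catalina, 0 members were called with RLE factors, library totals, strain as a replicate block or only the libraries compared, and 1 with TMM factors from the other features. Only the libraries compared gave 72 in Sonoran. With strain as a replicate block, 67 members were called for prickly pear against lab food, 28 for saguaro against prickly pear and 29 in Sonoran. Leaving out 1 library or strain gave 21 to 77 called for prickly pear against lab food (21 without T-28, 32 without T-22, 36 without C-9, 77 without C-7), 0 to 1 for saguaro against lab food (1 without the C-9 prickly pear library) and 0 to 58 for saguaro against prickly pear (0 without C-M or T-22, 58 without C-7). It gave 0 to 56 for prickly pear against lab food in Sonoran and 0 to 13 in Santa Catalina, where 21 of 24 such fits moved the count by over 1.5 times and 13 were called without C-7. It gave 0 to 2 for the difference in response to saguaro (2 without the C-7 saguaro library) and 0 throughout for the other comparisons. The single libraries and strains that moved the Sonoran count by over 1.5 times were the prickly pear libraries of T-22 (7) and T-28 (4), the lab food libraries of T-27 (25) and T-28 (11), and the whole of strain T-22 (0), of T-27 (3) and of T-28 (0). For saguaro against prickly pear the counts were 21 without the C-M and 16 without the T-22 and 13 without the T-28 prickly pear library, 20, 19, 13 and 21 without the C-M, C-9, T-22 and T-27 saguaro library, and 19, 11 and 12 without strain C-9, T-27 or T-28. The summed share on saguaro, prickly pear and lab food was 44.49%, 35.92% and 40.39% for the 50 highest features and 58.91%, 50.65% and 57.52% for the 200 highest. Without the most abundant feature, a setting chosen after seeing the data, it was 38.42%, 37.67% and 35.84%. Without 1 strain it was 49.75% to 51.62% on saguaro, 41.33% to 43.72% on prickly pear and 47.74% to 48.68% on lab food. The causes of these changes were not tested. The comparisons rest on 3 strains in a population with 1 pool for each strain and food, and the effect of depth was not tested.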
